A study of Glycine max with 2 samples.

Results

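Glyma.03G221400, Glyma.03G101800 and Glyma.08G070800 are the soybean genes that the deposited tables match to the Arabidopsis proteins LACS1, CER1 and AB11G (ABCG11), which make and export the wax of the leaf surface. These 3 genes were chosen by name from earlier results of the 50-day comparison, so their values at 50 days are a description. Of the 2413 transcripts of 2085 genes listed at 50 days, 3 belonged to them, 1 isoform each. Of the 2471 transcripts of 2126 genes listed at 95 days, 1 did, the same AB11G-like isoform.

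Plant leaves are covered by a cuticle, a polymer of cutin filled and coated with wax, which is made by the epidermis and limits water loss. In Arabidopsis, LACS1 activates long fatty acids to their coenzyme A esters, elongases lengthen them, and CER1 turns very-long-chain precursors into alkanes. ABCG11 is a half-size transporter at the plasma membrane that passes wax and cutin precursors outwards.

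Leaf RNA came from greenhouse soybean (Glycine max) of types that senesce early and late, sampled 50 and 95 days after sowing under normal conditions. The aim stated for the series was to find genes whose expression differs between the types. Each age has 1 table comparing 2 libraries, headed A and B; the headers and labels do not say which is the early type, nor that A is the same type at both ages, and they name no variety. There is 1 library per type and age, so nothing below could be checked against replicates, and p-values of the authors concern a pair of libraries rather than the types. In bulk leaf RNA, fewer cells of a kind and less RNA per cell cannot be told apart.

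Each table lists only transcripts with an unadjusted p under 0.05, so library depth is unknown and a gene without a row is not shown to be equal or absent. Levels are normalised reads, the deposited value minus the 1 that it includes. Intervals are 95% and cover counting error only. A fold against a library with no read is a lower bound set against 3 reads. The 95% interval of 0 reads reaches above 3 reads, so such a bound is a convention and not an interval limit. A transcript is called where the adjusted p of the authors lies under 0.05 and the log2 ratio has a size of at least 1. All 3 isoforms were called at 50 days, where 4.64% of listed transcripts were called, 3.19% higher in A and 1.45% higher in B. Over the roughly 62413 transcripts that the authors tested, as estimated from their adjusted p-values, the called share was 0.179%. Nothing is read from this, since the genes were chosen from that comparison. At 95 days the 1 listed isoform was not called, and 1.5% of listed transcripts were, or 0.0617% of about 59955 tested.

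The LACS1-like and CER1-like isoforms were read in library B alone at 50 days, and the AB11G-like isoform in library A alone. The isoforms of wax synthesis and of the putative exporter stood on opposite sides of this comparison.

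Glyma.03G221400.2, the LACS1-like acyl-CoA synthetase, had no read in A and 6519 normalised reads in B (exact Poisson interval 6366 to 6674). The exact Poisson interval of 0 reads in A reaches 2.96 normalised reads, and the 3 reads used for the bound are worth 2.41. The isoform was at least 2707-fold higher in B, with an adjusted p of 0.0184 in the authors' deposited table. By deposited log2 ratio it ranked 2 among the 945 transcripts listed with more reads in B. No other isoform of the gene is listed at 50 days, and none at 95 days, so the total over the gene's isoforms is not known.

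Glyma.03G101800.1, the CER1-like isoform, likewise had no read in A, against 5606 normalised reads in B (5465 to 5750). It was at least 2328-fold higher in B and ranked 3 on that side. In the authors' deposited table its adjusted p was 0.0244. The table describes it as ECERIFERUM 1-like, with the gene ontology terms lipid biosynthesis, oxidation-reduction and iron ion binding. CER1 works in Arabidopsis together with CER3, for which no transcript is listed at either age. Glyma.03G101800 has no other listed isoform at either age, so the total over its isoforms is not known.

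Glyma.08G070800.2, the AB11G-like isoform, had 29775 normalised reads in A (29472 to 30079) and no read in B at 50 days, where the interval reaches 3.46 normalised reads and the 3 reads of the bound are worth 2.82. It was at least 10570-fold higher in A, and its deposited log2 ratio of -14.86 was the largest in size of the 1468 transcripts listed with more reads in A. The adjusted p in the authors' deposited table was 0.0159. Other isoforms of the gene have no row at either age, so the total over its isoforms is not known. The annotation of this gene is divided. The closest Arabidopsis match is AT1G17840, symbol AB11G, but the description reads ABC transporter G family member 41 and marks the protein model as low quality, so its assignment to wax export rests on the Arabidopsis match alone.

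At 95 days the same AB11G-like isoform had reads in both libraries and lay on the other side. It stood at 148 normalised reads in A (123 to 177) and 3019 in B (2908 to 3134), 20.4-fold higher in B with a Clopper-Pearson interval of 16.95 to 24.7. In the authors' deposited table the unadjusted p was 0.0466 and the adjusted p 1, so the isoform did not pass the call. Its ratio was among the smallest listed in B, ranking 1254 of 1317. Whether the ratio differed between ages could not be tested with 1 library each. Of the 788 transcripts listed at both ages, 252 (31.98%) had more reads in the other column at 95 days, 177 of them passing from A to B as this one did.

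**Figure D1:**
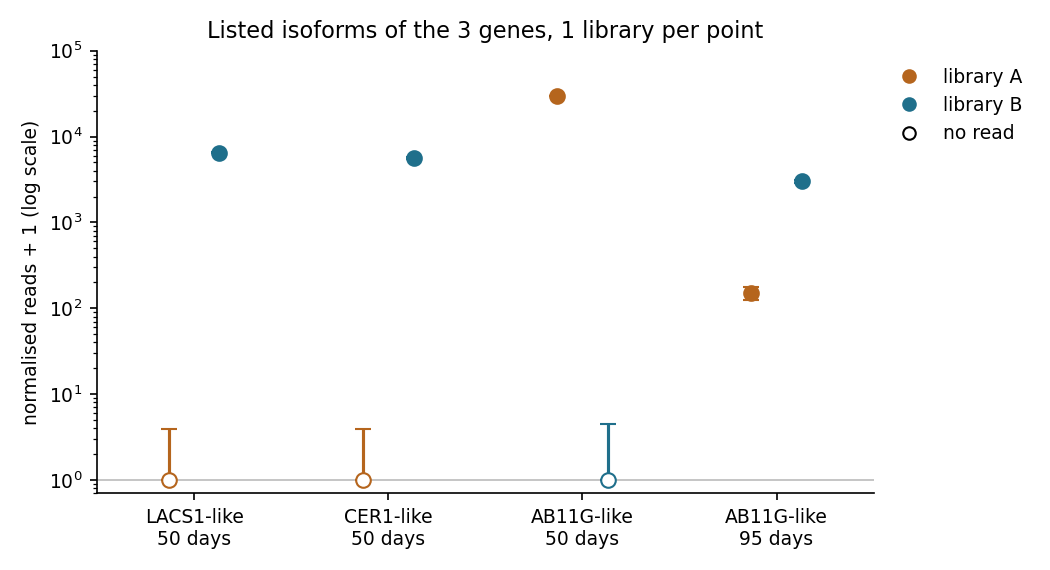
Normalised reads plus 1 (log axis) of each listed isoform of the LACS1-like, CER1-like and AB11G-like genes in library A (brown) and B (blue), with exact Poisson 95% intervals; open points on the grey line at 1 had no read. The LACS1-like and CER1-like isoforms were read in B alone at 50 days, and the AB11G-like isoform in A alone at 50 days and more in B at 95 days.

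A read in one library and none in the other was the usual pattern of the tables, and was not particular to these genes. Of all listed transcripts, 70.5% had no read in 1 library at 50 days and 75.3% at 95 days. The bound of such a transcript is set by its reads in the other library.

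**Figure D2:**
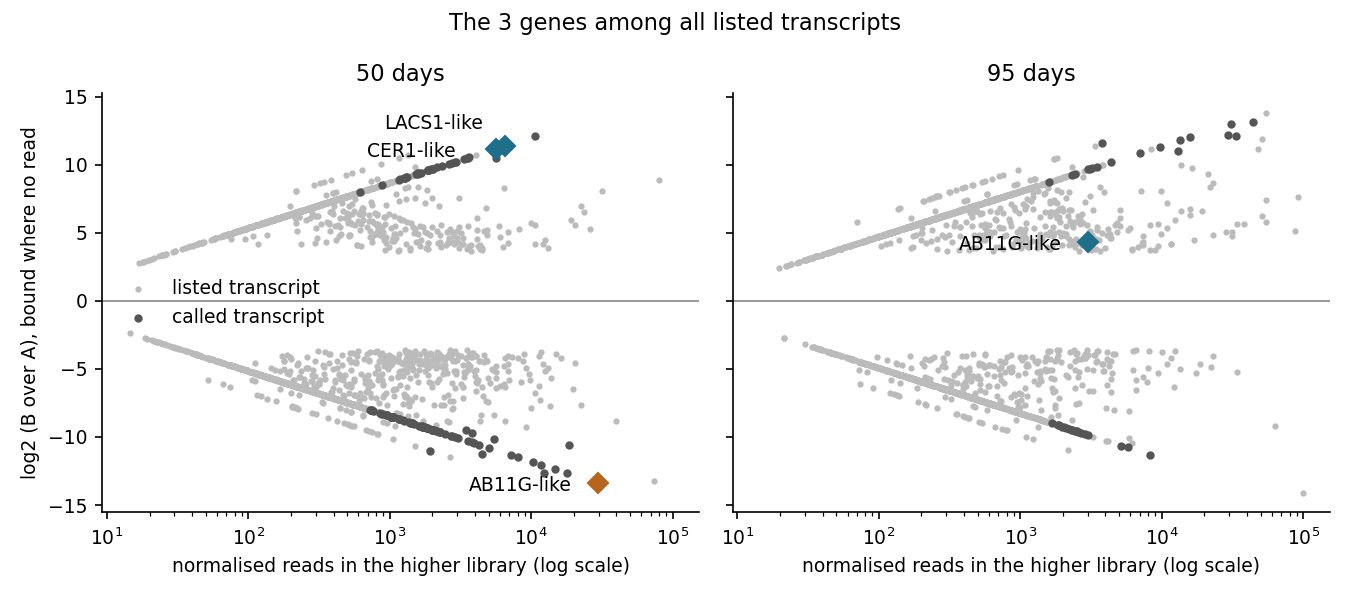
Log2 ratio of B over A (bounds where a library had no read) against normalised reads in the higher library (log axis) for all 2413 transcripts listed at 50 days and 2471 at 95 days; dark points were called and diamonds are the isoforms of the 3 genes. The diamonds at 50 days lie on or next to the diagonal edges formed by transcripts with no read in 1 library, and the diamond at 95 days lies among transcripts with reads in both.

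The rest of the surface lipid pathway was described from word lists covering fatty acid synthesis, activation, elongation, the alkane and alcohol branches, export, cutin and regulators. They matched 20 listed transcripts of 18 genes at 50 days, with 9 on the A side and 11 on the B side. At 95 days they matched 24 transcripts of 23 genes, 9 in A and 15 in B. Their median log2 ratio of B over A was 4.46 at 50 days, where that of all listed transcripts was -4.77, and 4.74 at 95 days, against 3.84 for all listed ones, with bounds used where a library had no read. Without the 3 genes the medians were 4.19 and 4.74, and the splits were 8 in A and 9 in B, and 9 in A and 14 in B. No listed transcript had a deposited log2 ratio smaller in size than 3.58 at 50 days or 3.57 at 95 days. Such a median takes the sign of the side with more transcripts, and a few transcripts can turn it. The gap between these medians was therefore not read as a shift of the pathway. Of all listed transcripts, 60.8% lay in A at 50 days and 46.7% at 95 days. No regulator on the list, such as SHINE or the wax-related MYB factors, had a listed transcript at either age. Without the 3 genes, 1 of 17 transcripts of these lists was called at 50 days, an ABCG transporter. That is 5.88%, near the 4.64% of all listed transcripts. At 95 days 0 of 23 were called, against 1.5% of all listed transcripts. Nearest outside the threshold at 50 days was a GDSL lipase, Glyma.13G231500.5, with an adjusted p of 0.0769 in the authors' deposited table.

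Listed genes of the early steps lay in B at 50 days, the side of 39.2% of all listed transcripts. Acyl carrier protein holds the growing fatty acid in the plastid, and its transcript Glyma.08G008800.1 stood at 189 normalised reads in A against 10002 in B, 53.0-fold higher in B (46.6 to 60.6). A second such gene, Glyma.05G201300.1, had none in A and 584 in B. The acyl carrier protein transcripts were not called, with adjusted p of 0.407 and 0.384 in the authors' deposited table. All 3 listed acyl-CoA synthetases also had more reads in B, among them Glyma.03G221400.2, which was chosen from this comparison. The second LACS1-like gene, Glyma.19G218300.2, stood at 227 normalised reads in A against 6035 in B, 26.6-fold higher in B (23.6 to 30.03). The LACS8-like Glyma.20G060100.3 had none in A and 970 in B, at least 403-fold. Neither was called, with adjusted p of 0.946 and 0.138 in the authors' deposited table.

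At 95 days the acyl-CoA synthetases were divided, and the LACS1-like transcripts listed were those of other genes. Glyma.02G010300.3 stood at 154 normalised reads in A against 3462 in B, 22.4-fold higher in B (18.7 to 27.05). Glyma.10G010800.3 went the other way, with 1725 in A and 31.7 in B, 54.4-fold higher in A (37.7 to 81.5). LACS8-like isoforms of 1 gene stood on opposite sides, the first, Glyma.20G060100.1, at 1157 in A against none, and Glyma.20G060100.3 at none against 286 in B. None of these 4 transcripts was called. The omega-3 desaturase Glyma.18G062000.1, which makes linolenic acid, had 28.6 in A and 763 in B.

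The elongation step was listed at 95 days and not at 50. Ketoacyl-CoA synthases catalyse the condensing step that sets chain length, and all 3 listed ones had more reads in A. Glyma.15G042500.1, KCS12-like, stood at 2597 normalised reads in A against 14.2 in B, 183-fold higher in A (107 to 344). A second KCS12-like gene, Glyma.13G331600.1, had 1659 against 32.8, 50.5-fold (35.2 to 75.2). Glyma.17G183700.1, whose Arabidopsis match KCS2 acts in wax and suberin synthesis, had 2908 against 166, 17.5-fold (14.8 to 20.7). These adjusted p-values were between 0.307 and 1 in the authors' deposited table, and none was called.

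In the branches beyond elongation, the listed alkane and wax ester transcripts lay on opposite sides at 50 days. All 3 listed CER1-like genes had more reads in B. Besides Glyma.03G101800.1, Glyma.07G114200.1 stood at 48.96 normalised reads in A against 2285 in B, 46.7-fold higher in B (36.2 to 61.2). Glyma.03G101200.1, named here after its values were seen, had none in A and 426 in B. How the authors' counting divides reads among similar copies is not stated in any source used, so the values of the 3 CER1-like genes may share reads. WSD1 joins fatty alcohols and acids into wax esters, and all 3 listed WSD1-like transcripts had more reads in A. Glyma.12G114900.1 had 2162 in A and 34.7 in B, 62.2-fold higher in A (45.04 to 88.6), and its isoform Glyma.12G114900.3 had 380 against 2.82, which is 3 reads. Glyma.06G291300.1 had 90.7 in A and none in B. These 3 WSD1-like transcripts belong to 2 genes. Of the CER1-like and WSD1-like transcripts, only Glyma.03G101800.1, chosen from this comparison, was called. The others had adjusted p-values of 0.358 or more in the authors' deposited table.

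No CER1-like transcript was listed at 95 days, and the WSD1-like transcripts were divided. Glyma.06G291300.1 again had more reads in A, 244 against 14.2. Glyma.12G114900.3 lay in B at this age, with 99.6 there and none in A. A further gene, Glyma.09G239600.1, had 33.6 in A and 2749 in B, 81.8-fold higher in B (56.05 to 124). An alcohol-forming fatty acyl-CoA reductase, which makes the fatty alcohols of wax, Glyma.11G185300.1, had 19.9 in A and 651 in B. None of these was called.

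The other transporters of the ABCG family were on the A side with the AB11G-like isoform at 50 days. All 4 listed ABCG transcripts had more reads in A, the side of 60.8% of all listed transcripts. Of the 4, 2 were called, where 4.64% of all listed transcripts were. The first of the 2 is the AB11G-like isoform, which was chosen from this comparison. The second called one, Glyma.10G203000.1, is AB39G-like and described as a pleiotropic drug resistance protein, a full-size transporter class. Its level was 3044 normalised reads in A with B at none, a difference of at least 1080-fold, with an adjusted p of 0.0184 in the authors' deposited table. Glyma.05G192700.1, AB5G-like, had 1347 against 43.2, 31.2-fold (23.3 to 42.8). The match of the remaining one, Glyma.16G076900.1, is ABCG14, which carries cytokinin in Arabidopsis, so the family's transporters do not all move surface lipids. At 95 days the AB39G-like transcript was again read in A alone, 167 against none, while the AB11G-like and an AB15G-like transcript had more reads in B. Of 2 lipid-transfer proteins listed then, 1 lay on each side, Glyma.18G052600.1 at 62.3 normalised reads in A alone and the DIR1-like Glyma.07G139400.1 at 469 in B alone.

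Transcripts matching the cutin list were mostly GDSL lipases, the family of the cutin synthase of tomato. At 50 days they divided 2 in A and 3 in B, and at 95 days the list held 1 in A and 6 in B. Glyma.19G250000.1, LTL1-like, had more reads in B at both ages, 581 in A and 10574 in B at 50 days and 97.1 in A and 4701 in B at 95 days. Its ratios were 18.2-fold (16.9 to 19.6) and 48.4-fold (38.7 to 61.3). Glyma.19G051100.1, another GDSL lipase, also lay in B at both ages, at 8.83 in A against 709 in B and then none against 197. Glyma.04G109900.1, matched to the same Arabidopsis lipase, had none in A and 552 in B at 50 days. On the A side at 50 days were 2 isoforms of Glyma.13G231500, the one with more reads, Glyma.13G231500.5, having 1073 in A and none in B. Glyma.13G129900.1 had 21.2 in A and 1101 in B at 95 days. The 2 glycerol-3-phosphate acyltransferases of that age, a GPAT9-like and a plastid one, lay in B, but belong to membrane and storage lipid synthesis.

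**Figure D3:**
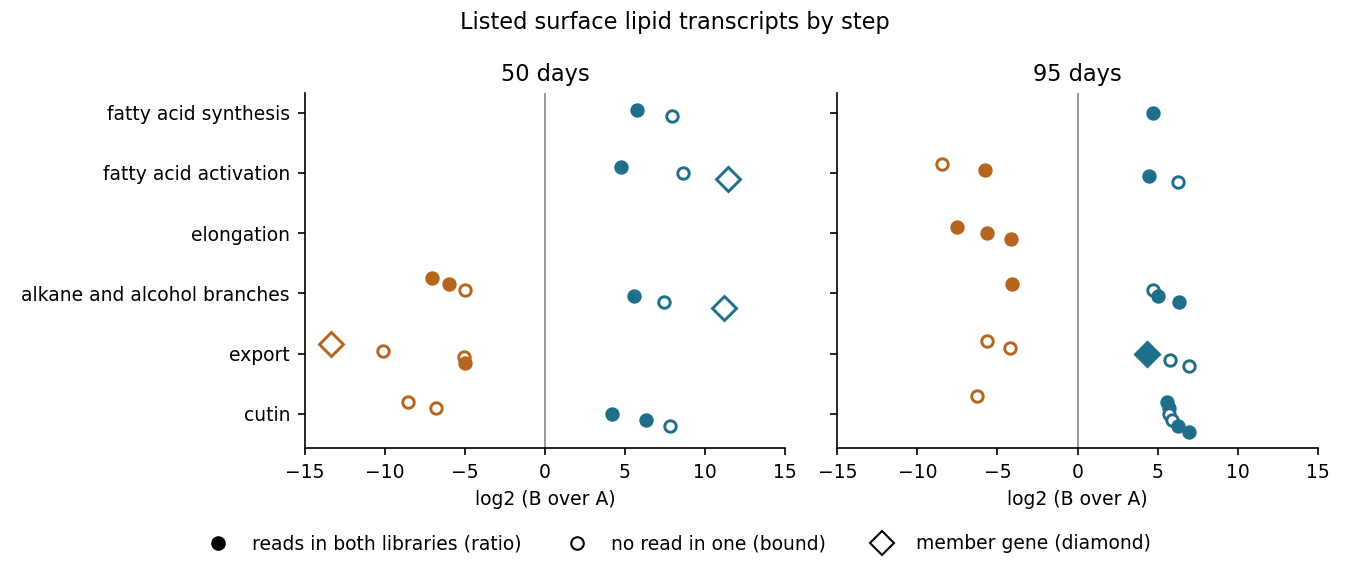
Log2 ratio of B over A of every listed surface lipid transcript at 50 days (20 transcripts) and 95 days (24), by pathway step; open symbols are bounds with no read in 1 library, and diamonds are the isoforms of the LACS1-like, CER1-like and AB11G-like genes. At 50 days activation lies in B and the transcripts matching the export words in A. Those transcripts are all of the ABCG family, whose transporters do not all move surface lipids. At 95 days elongation lies in A and most transcripts matching the cutin words in B, among them acyltransferases of membrane and storage lipid synthesis.

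Listing required an unadjusted p under 0.05, so any listed marker of a leaf cell type was bound to have unequal reads. None of these markers was called at either age. Of all listed transcripts, 60.8% lay in A at 50 days and 46.7% at 95 days. Of 6 listed transcripts of epidermal factors at 50 days, 2 lay in A and 4 in B, with a summed level of 746 normalised reads in A and 4163 in B; the 2 had no read in B and the 4 none in A. Among the 4 was Glyma.18G106400.2, matched to PDF1, a protein of the outermost cell layer, with 1352 in B. Isoforms of the HDG5-like gene stood on both sides, Glyma.01G014600.3 with 975 in B and Glyma.01G014600.5 with 487 in A, each read in that library alone. All 4 mesophyll transcripts of chlorophyll-binding proteins had more reads in A, 5424 summed against 197 in B. At 95 days the epidermal list held 1 transcript, Glyma.01G014600.3, at 202 in A alone. The mesophyll list held 2, summed 111 in A and 1061 in B, but they lay on opposite sides. A rubisco activase, Glyma.03G068100.1, was read in A alone, at 77.2 normalised reads. The chlorophyll-binding protein Glyma.19G261400.1 stood at 33.6 in A against 1061 in B. The guard cell list held the KAT1-like Glyma.15G094600.1 at both ages, 95.5 and then 39.9 in A and none in B, and no trichome marker was listed. The part of these differences in the wax genes' values was not tested.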

How the data were processed

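Leaf libraries were sequenced on the Illumina NovaSeq platform, per the labels' protocols. The submitters' processing notes name Trimmomatic 0.36 for trimming reads and DESeq 1.36.0 for the comparison. No source used here names an aligner, a read counter, a build or an annotation. Per the file headers, the authors deposited for each transcript a level per library (headed A and B), its log2 ratio and p-values before and after adjustment. The levels that the authors deposited are a signal with no value below 0. After subtracting 1, all values of a column were multiples of a single step (100% of values lay within 0.01 of a whole multiple), and the multiple was taken as reads; the steps are worth 0.803 and 0.939 normalised reads for A and B at 50 days, and 1.25 and 1.09 at 95 days. That the ages share a scale is not stated. In the deposited log2 ratio, B is divided by A with the added 1 kept.

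One repeated row at 50 days was counted once. Poisson and Clopper-Pearson intervals were computed on these reads; recovery of reads was tested on simulated data. The members and lists were chosen with earlier results of these data known. Text names every listed isoform of the 3 genes, and surface lipid list transcripts that were called, listed at both ages or had at least 500 normalised reads in 1 library; others were named after their values were seen. Lists were matched by words in symbol, Arabidopsis match and description. No sequence or coordinate is given, since the RefSeq table used matched 0 of the 3 genes. Alternatives covered the bound, the added 1, scaling, thresholds and list wording. Scripts ran in Python 3.11.15 with scipy 1.17.1, numpy 2.4.6 and pandas 2.3.3, and figures were drawn with matplotlib 3.10.9.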

Additional observations from a re-analysis of the deposited data

Results flagged for a closer look

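Among the surface lipid and cell type transcripts listed at both ages, 4 had more reads in one column at 50 days and in the other at 95 days, 2 of 7 in the surface lipid lists and 2 of 6 in the cell type lists. Of all 788 transcripts listed at both ages 31.98% did so, a share near that of these lists. With 1 library per type and age, and no statement that A is the same type at both ages, the difference between ages was not tested. The log2 ratio of B over A, with bounds where a library had no read, was -13.37 at 50 days and 4.35 at 95 days for the AB11G-like Glyma.08G070800.2. It was -7.08 and 4.74 for the WSD1-like Glyma.12G114900.3, whose values rest on 3 reads in B at 50 days and 91 reads in B at 95 days. The chlorophyll-binding protein Glyma.19G261400.1 had -5.67 and 4.98. The HDG5-like Glyma.01G014600.3 went the other way, with 8.66 and -5.94.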

How the results depend on the processing

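No alternative turned the direction of a listed isoform of the 3 genes. At 50 days, though, the choice of bound, the added 1 and size factors could not have turned bounds of that size. Of the 45 values recomputed, 24 stayed close to the reported one. For a ratio that means within its counting interval, and for a count within 1.5 times. Some of the 24 could not have moved, since a sum over 1 listed isoform equals that isoform. Nor could a log2 threshold of 2 change a call, as no listed log2 ratio was smaller in size than 3.57. The log2 bounds of B over A at 50 days were 11.40 for LACS1-like, 11.18 for CER1-like and -13.37 for AB11G-like. They became 12.99, 12.77 and -14.95 against 1 read, and 12.67, 12.45 and -14.86 with the added 1 kept. Without size factors they were 11.18, 10.96 and -13.59. The sum over a gene's listed isoforms gave the same values, since 1 isoform is listed. Isoforms without a row are missing from that sum, so it is not the total of the gene. Centred on the median of all listed transcripts they were 16.18, 15.96 and -8.59, and the AB11G-like ratio at 95 days changed from 4.35 to 0.51; as the tables hold only transcripts that differ, that median lies within one side and is no zero point. At an adjusted p under 0.01, 0 of the 3 isoforms were called at 50 days, against 3 at 0.05. With the wording limited to CER1, ECERIFERUM, wax, cutin and 3-ketoacyl-CoA synthase, the lists held 0 transcripts in A and 3 in B at 50 days, and 3 in A and 0 in B at 95 days. The 3 at 50 days were the CER1-like genes and the 3 at 95 days the ketoacyl-CoA synthases. These are different genes, so the counts show no change of side between ages. Depth is unknown, so the precision of a value is that of its own reads. No paired analysis was possible because each type and age has 1 library.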

Other observations

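Suberin, the lipid polymer of bark and root layers, shares precursors with cutin. Its feruloyl transferase, HHT1, adds ferulate to hydroxy fatty acids, and 3 transcripts listed at 50 days carried that symbol. Glyma.05G203000.1 stood at 3325 normalised reads in A against 88.3 in B, a 37.7-fold difference (30.7 to 46.7), and at 95 days 1808 against 151, 11.98-fold (10.05 to 14.4). Glyma.08G010500.1 was read in A alone, at 449 at 50 days and 107 at 95 days. Glyma.06G029900.1 lay in B, with 25.4 and none in A. Its Arabidopsis match is AT1G27620, where that of the other genes is AT5G41040, so its assignment to this enzyme is divided. None was called.

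By gene ontology, chosen after the values were seen, 12 listed transcripts of 8 genes carried a lipid or fatty acid biosynthesis term at 50 days, 4 on the A side and 8 on the B side, and 1 was called, the CER1-like Glyma.03G101800.1. At 95 days there were 13 of 9 genes, 6 in A and 7 in B, and none was called. Of vascular markers, the APL-like Glyma.15G263700.5 had no read in A at either age, with 131 in B at 50 days and 288 at 95 days, and 2 sieve element occlusion transcripts lay in B at 95 days.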
